A study of Mus musculus with 4 samples.

Results

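The genes described here repair broken or mispaired DNA or signal that it is damaged, in IgA-positive cells of the mouse small intestine that carry the integrin CD11b at their surface and in those that do not. They are 38 genes chosen by name: 10 of homologous recombination, 6 of end resection and its helicase, 8 of the Fanconi anaemia pathway, 4 of end joining, 8 of damage sensing and the checkpoint, and 2 of mismatch repair. Of these, 35 have a probe set that names them alone on the array, out of 18193 such genes in all, with 79 probe sets between them. H2afx, Rbbp8 and Xrcc2 have none here and were not analysed. Rad54b lay below the filter on dim probe sets, a signal of about 9.51, and 34 genes were tested.

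RNA came from primary cells of female BALB/c mice (written Balb/c in the labels), 9 weeks old and marked WT in the sample titles, with no treatment. Plasma cells of the gut wall make most IgA, the antibody that is passed into the gut lumen. There are 4 arrays, 2 of CD11b-positive and 2 of CD11b-negative cells; in both fractions the first was labelled by One-Cycle chemistry from 1 µg of RNA and the second by 3' IVT Express chemistry from 0.1 µg. No label ties an array to its own mouse or sort, so the p-values speak of the spread between these 4 samples alone, and that spread may be technical. In the text, paired values of a fraction give the One-Cycle array before the 3' IVT Express array.

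The labelled cell type went with high signals of Igha and Jchain, between 11010 and 12633 on all 4 arrays. These genes encode the heavy chain of IgA and the chain that joins IgA units. Quantile normalization gives the brightest probe sets of each array the same values, so this narrow range does not compare the fractions. Itgam, the gene of CD11b, was at 28.3 and 15.8 in CD11b-negative cells against 189 and 109 in CD11b-positive cells. Before scaling, array medians ran from 14.7 to 18.3 and trimmed means from 48.6 to 90.3, so signals of genes and lists, here and below, are quantile-normalized. All differences are on the log2(signal + 3) scale, CD11b-positive minus CD11b-negative, and folds taken from them understate the change of dim genes.

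As background, a break through both DNA strands can be rejoined directly by end joining, in which the Ku proteins hold the ends and a ligase seals them, at any time of the cell cycle. Homologous recombination instead copies the sister chromatid, so it works mainly in S and G2 phase, after the ends have been resected; the Fanconi anaemia proteins steer crosslinked DNA into the same route. The kinases ATM and ATR report breaks and stalled forks to the checkpoint, and mismatch repair corrects copying errors. In activated B cells the same end-joining and mismatch factors serve antibody class switching, while many recombination genes are known to be transcribed most in proliferating cells.

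In the fit that pairs arrays by kit, 7 repair genes were called higher in CD11b-positive cells (20.6% of those tested, against 3.73% of all genes). They act in recombination, at replication forks or in sealing breaks, and ran from 1.68-fold for Clspn to 2.51-fold for Rad51ap1. Without that pairing 0 passed, and with it 2 of the 7 remained when all probe sets of a gene were averaged. Those 2 have only 1 probe set each. The kinases Atm, Chek1, Chek2, Prkdc and Atr had log2 differences of 0.11, 0.21, 0.26, 0.31 and 0.45. The median log2 difference of the 34 genes was 0.41 (quartiles 0.17 and 0.78), against 0.0027 over all 12645 genes tested, and 0.38 without Bard1 and Brip1, whose CD11b-negative means lay below the filter. It was 0.38 under One-Cycle and 0.42 under 3' IVT Express labelling. Of the 34, 22 were higher with either kit, against 31.6% of all genes, and 3 were lower with either (Nbn, Xrcc6 and Trp53bp1), against 30.5% of all genes. For 18 genes both CD11b-positive arrays lay above both CD11b-negative ones and for 2 below them (Xrcc6 and Trp53bp1), where the background was 18.3% and 17.3% of all genes. Bard1 and Brip1 count among both the 22 and the 18.

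By the limma model without the kits, 0 repair genes passed an adjusted p under 0.05 in either direction (smallest adjusted p = 0.532, for Rad51ap1), and 0% of all genes did. At an unadjusted p under 0.05, 7 were higher and 0 lower, against 3.14% and 3.52% of all genes. The 7 at that level include Bard1, whose CD11b-negative mean lay below the filter. When the kit entered as a replicate block, 7 repair genes passed as higher and 0 as lower: Brca1, Rad51ap1, Rad54l, Blm, Lig4, Clspn and Topbp1. The background in that fit was 3.73% of all genes higher and 4.14% lower, and the 7 are 20.6% of the repair genes tested. The blocked fit has 1 residual degree of freedom per gene and leans on a variance trend shared across genes; without that trend it called 0 genes of the whole array, with 9 repair genes higher and 0 lower, and 710 and 867 of all genes, at an unadjusted p under 0.05. Averaging all probe sets of a gene left 2 of the 7, Blm and Lig4. These have 1 probe set each, so averaging could not change their values and does not test them. Adjusted p-values below are from limma, without and with the block. For single genes no exact permutation test is given, since with 2 arrays in each fraction its smallest two-sided p is 0.333.

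**Figure D1:**
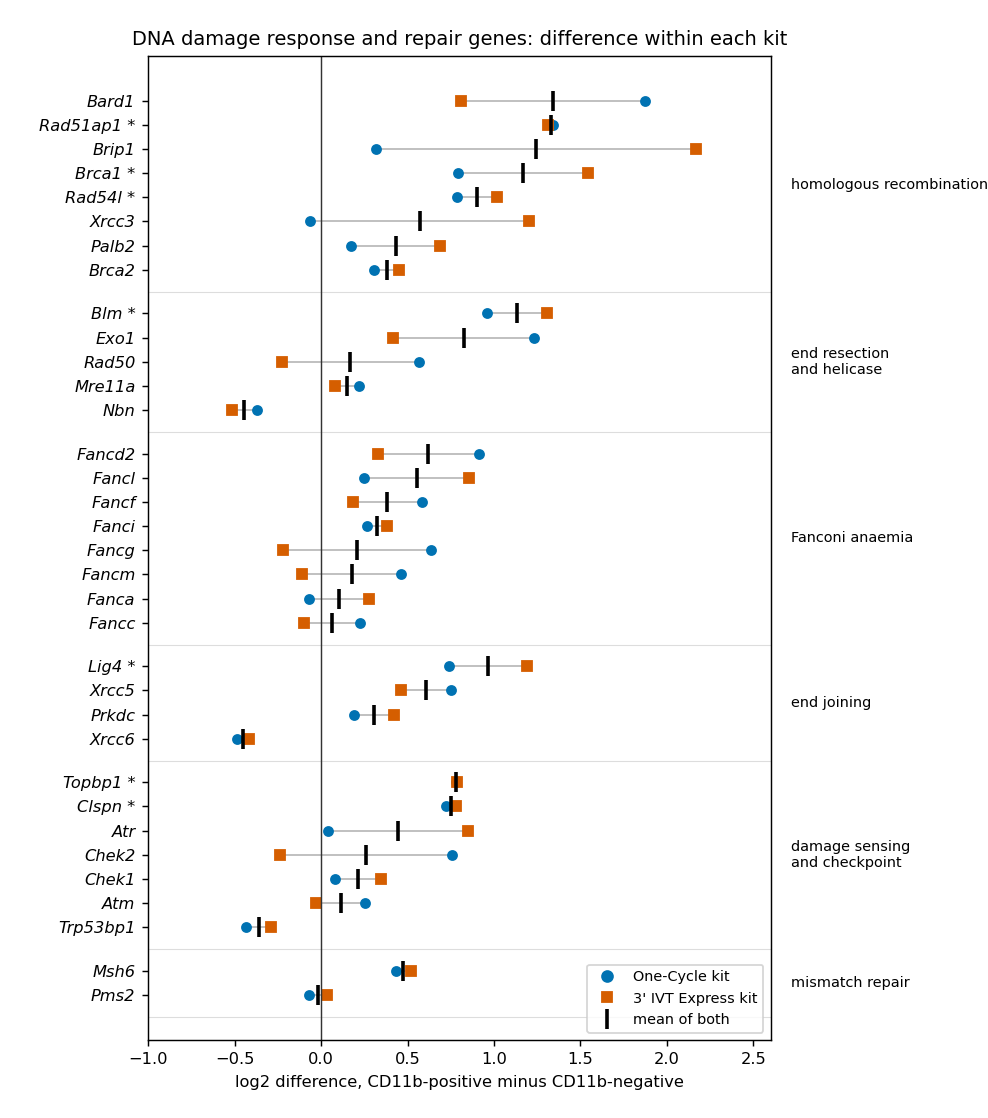
Log2 difference between the CD11b-positive and the CD11b-negative array of each kit (x axis) for the 34 repair genes tested, by pathway (circles One-Cycle, squares 3' IVT Express, bars the mean of both; asterisks mark the 7 genes past an adjusted p of 0.05 with the kit as a block). Homologous recombination genes have a median of 1.04, with 0.55 under One-Cycle and 1.11 under 3' IVT Express labelling, and Nbn, Xrcc6 and Trp53bp1 lie left of 0 with both kits.

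Promoter letters are shown for the 4 repair genes with the smallest p in the fit without the block and, for contrast, for Pms2, which had the largest p. Each run covers 250 bases before to 50 after the start of the gene in RefSeq (build GRCm38.p6), read along the gene, and capitals mark E2F cores, CHR elements and CCAAT boxes on either strand. They lie at chr6:126939538-126939837 (minus strand) for Rad51ap1, chr11:101551906-101552205 (minus strand) for Brca1, chr9:103305077-103305376 (plus strand) for Topbp1, chr8:9977631-9977930 (minus strand) for Lig4 and chr5:143909751-143910050 (plus strand) for Pms2.
Rad51ap1: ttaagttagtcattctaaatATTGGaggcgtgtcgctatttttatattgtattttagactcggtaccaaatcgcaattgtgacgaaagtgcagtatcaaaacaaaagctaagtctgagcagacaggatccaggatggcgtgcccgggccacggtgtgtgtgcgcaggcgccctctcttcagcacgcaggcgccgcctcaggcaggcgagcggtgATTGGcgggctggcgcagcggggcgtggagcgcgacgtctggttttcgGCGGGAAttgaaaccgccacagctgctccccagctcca
Brca1: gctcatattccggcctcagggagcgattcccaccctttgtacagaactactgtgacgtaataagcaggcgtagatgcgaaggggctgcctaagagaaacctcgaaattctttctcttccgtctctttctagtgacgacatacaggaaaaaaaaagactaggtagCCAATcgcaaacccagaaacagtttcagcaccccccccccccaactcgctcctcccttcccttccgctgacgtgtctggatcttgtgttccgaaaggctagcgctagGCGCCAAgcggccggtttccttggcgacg
Topbp1: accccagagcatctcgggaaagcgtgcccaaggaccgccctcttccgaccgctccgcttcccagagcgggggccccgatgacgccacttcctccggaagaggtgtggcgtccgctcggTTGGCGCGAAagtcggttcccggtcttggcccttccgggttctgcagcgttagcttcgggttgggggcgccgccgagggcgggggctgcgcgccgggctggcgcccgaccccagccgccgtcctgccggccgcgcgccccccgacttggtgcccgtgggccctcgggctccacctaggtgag
Lig4: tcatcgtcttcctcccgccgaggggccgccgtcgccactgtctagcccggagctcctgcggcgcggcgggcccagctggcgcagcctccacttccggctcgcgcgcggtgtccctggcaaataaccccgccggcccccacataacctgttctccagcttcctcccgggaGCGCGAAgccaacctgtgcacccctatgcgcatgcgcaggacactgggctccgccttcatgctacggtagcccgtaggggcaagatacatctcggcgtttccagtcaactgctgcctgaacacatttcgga
Pms2: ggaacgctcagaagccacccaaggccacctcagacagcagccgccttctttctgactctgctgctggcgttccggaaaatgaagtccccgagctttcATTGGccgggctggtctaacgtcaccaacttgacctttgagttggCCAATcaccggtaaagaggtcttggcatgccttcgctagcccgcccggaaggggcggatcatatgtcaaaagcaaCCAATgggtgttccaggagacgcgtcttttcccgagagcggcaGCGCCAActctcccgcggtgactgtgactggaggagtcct
The first 3 motifs are known from promoters of cell cycle genes and the GC box from promoters at large. The E2F core was searched in 4 forms, the letters TTCCCGC, then also TTCGCGC, then also TTGCCGC, then also TTGGCGC. The CHR was searched as the letters TTTGAA and also as TTCGAA, the CCAAT box by its name and the GC box as GGGCGG. Both strands were read, and an E2F core can share letters with a CCAAT or a GC box. Rad51ap1 and Brca1 carried an E2F core at 12 and 21 bases after the start and CCAAT boxes before it, Topbp1 held 2 overlapping E2F cores that begin at -132 and -129, and Lig4 held 1 at -81. Pms2 held 1 at 10 bases after the start and 3 CCAAT boxes.

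Over the 29 repair genes with an entry, 19 promoters (65.5%) held an E2F core, against 9.69% of 27025 genes with an entry of this length and 16.54% of the 10207 of them that were tested on the array. A CCAAT box was found in 19 (65.5%, against 37.9% of all entries and 38.35% of those tested). A GC box was found in 18 (62.1%), close to the 61.6% of tested genes, against 35.9% of all entries. A CHR was found in 2, Bard1 and Atr (6.90%, against 19.4% and 13.94%). The median log2 difference was 0.38 over the 19 repair genes with an E2F core and 0.44 over the 10 without. These shares are descriptions of letters and were not tested.

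Homologous recombination genes had a median of 1.04 over the 8 tested, with 0.55 and 1.11 within the kits and 7 of the 8 higher with both. Those 7 include Bard1 and Brip1. The median was 0.74 over the 6 genes that lay above the filter in both fractions, and 0.60 over all 8 without CD11b-negative replicate 2. Under One-Cycle labelling, and without that array, the resection genes had the larger median (0.57 and 0.77), so the groups have no settled order, and that they differ was not tested. Brca1 encodes a tumour suppressor that promotes resection and recombination. Its signals were 57.8 and 47.0 in CD11b-negative cells and 102 and 143 in CD11b-positive cells, means of 52.4 ± 7.68 and 122 ± 28.7 (SD, n = 2 each). The groups did not overlap, and the log2 difference was 1.17 ± 0.29 (SE; 2.25-fold, adjusted p = 0.546, and 0.00127 with the block), with 0.79 and 1.55 within the kits. Rad51ap1, whose protein helps DNA strands to pair during recombination, had 27.8 and 23.1 in the CD11b-negative against 74.97 and 61.9 in the CD11b-positive arrays. Of the repair genes, only Rad51ap1 had its nearest arrays at least 2-fold apart, as 0.34% of all genes had upward and 0.388% downward. Its log2 difference was 1.33 ± 0.30 (SE; 2.51-fold, adjusted p = 0.532, and 0.00424 with the block), nearly the same with either kit, at 1.34 and 1.31.

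Rad54l, a motor protein that remodels DNA during strand exchange, showed how far the kits can differ. Its signals were 55.9 and 23.7 without CD11b and 98.7 and 51.1 with it. The fractions overlapped, while both kits gave a higher CD11b-positive value (0.79 and 1.02). The log2 difference of 0.90 ± 0.48 (SE) had an adjusted p of 0.828 without and 0.0371 with the block, and it ran from 0.33 to 1.48 on leaving out 1 array. Bard1, the partner of Brca1, and Brip1, a helicase that binds it, were chosen after their values were seen because their CD11b-negative means lay below the filter, so no fold is given. Bard1 had 5.71 and 9.64 against 28.9 and 19.1 (adjusted p = 0.687, and 0.138 with the block), and Brip1 had 12.4 and 3.65 against 16.2 and 26.9 (0.784 and 0.219). For both the fractions did not overlap, but the kits disagreed in size, at 1.87 and 0.81 for Bard1 and 0.32 and 2.17 for Brip1. Palb2, Brca2 and Xrcc3 had log2 differences of 0.43, 0.38 and 0.57; Palb2 links Brca1 to Brca2. Xrcc3 was at -0.06 with the One-Cycle kit. None of these 3 passed with the block (adjusted p = 0.547 to 0.660).

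**Figure D2:**
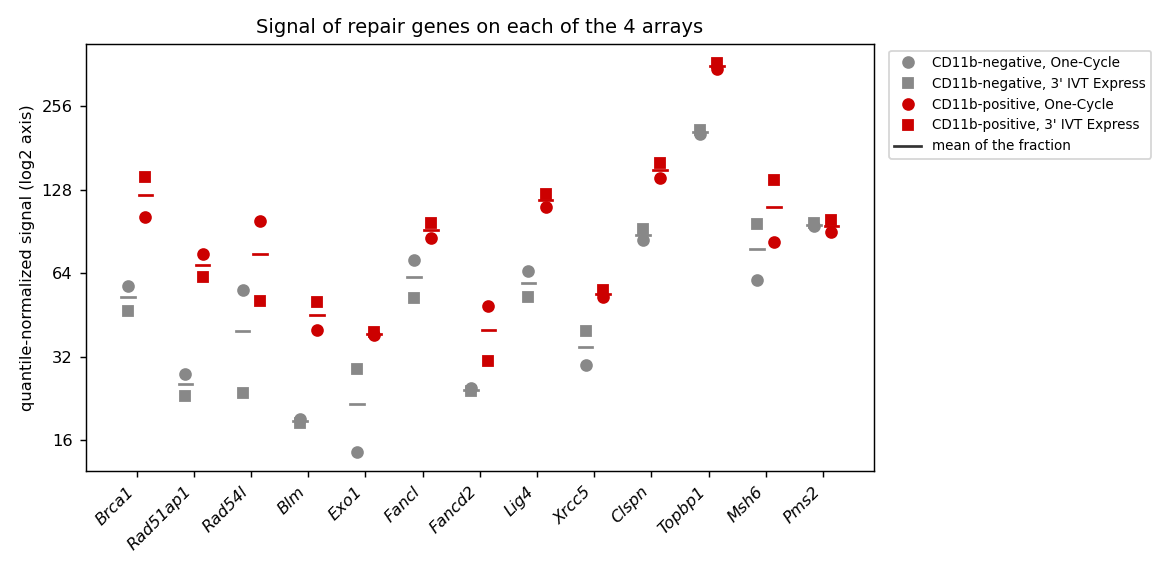
Quantile-normalized signal (log2 axis) of 13 repair genes on each of the 4 arrays, grey for CD11b-negative and red for CD11b-positive, circles for One-Cycle and squares for 3' IVT Express, with a line at each fraction's mean. Brca1, Rad51ap1, Blm, Lig4, Clspn and Topbp1 show no overlap between the fractions, whereas those of Rad54l and Msh6 overlap.

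The resection genes had a median of 0.17 over 5 genes, with 3 higher and 1 lower under both kits. The median was 0.77 without CD11b-negative replicate 2 and 0.53 when the sets of each gene were averaged. Blm, the helicase of Bloom syndrome, which dissolves recombination intermediates, was at 19.0 and 18.5 in CD11b-negative cells and at 39.9 and 50.3 in CD11b-positive cells. Its fractions did not overlap, and the log2 difference was 1.13 ± 0.33 (SE; 2.20-fold, adjusted p = 0.610, and 0.0488 with the block). Exo1, an exonuclease of long-range resection, had 14.5 and 28.8 against 38.2 and 39.4, and was at 0.82 ± 0.40 (SE; adjusted p = 0.805, and 0.205 with the block). The CD11b-positive arrays of Exo1 were alike and the CD11b-negative ones were not. The 3 genes of the MRN complex, which binds broken ends and starts resection, lay near or below 0 with the probe sets used. Mre11a was at 0.15 and Rad50 at 0.17, the latter with opposite signs in the kits (0.57 and -0.23). A dimmer Mre11a set above the filter was at 0.91, with 0.13 and 1.69 within the kits. Nbn, chosen after its values were seen, was at -0.44 ± 0.38 (SE), with signals of 47.7 and 32.7 against 36.2 and 21.98, and its fractions overlapped (adjusted p = 0.917, and 0.527 with the block).

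In the Fanconi anaemia pathway 8 of 8 genes had a log2 difference above 0, ranging from 0.06 to 0.62, with a median of 0.27 (0.45 without CD11b-positive replicate 2). Both kits gave a higher value for 4 of them, Fancd2, Fancf, Fanci and Fancl, and 0 passed with the block. Fancl, the ubiquitin ligase subunit of the core complex, had 71.6 and 52.3 in the CD11b-negative against 85.7 and 96.9 in the CD11b-positive arrays (log2 difference 0.55 ± 0.28, SE; adjusted p = 0.813, and 0.173 with the block). Fancd2, the substrate of that ligase, had 24.6 and 24.0 against 49.0 and 30.9 (0.62 ± 0.36, SE; adjusted p = 0.848, and 0.354 with the block). Both genes had fractions that did not overlap, with the larger gap under a different kit in each. Fanci, the partner of Fancd2, was at 0.32 with 0.26 and 0.38 within the kits. The core complex genes Fanca, Fancc and Fancg were at 0.11, 0.06 and 0.21, and Fancm, which anchors the complex to DNA, at 0.18, and all 4 changed sign between the kits.

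End joining genes differed in direction, with 3 of 4 higher and 1 lower under both kits. Lig4, the ligase that seals the break, was at 65.1 and 52.7 in CD11b-negative cells and at 111 and 124 in CD11b-positive cells. The fractions did not overlap and the log2 difference was 0.96 ± 0.26 (SE; 1.95-fold, adjusted p = 0.609, and 0.00507 with the block), with 0.74 and 1.19 within the kits. The Ku subunits stood on opposite sides. Xrcc5, which encodes Ku80, had 29.99 and 39.6 against 52.5 and 55.7 (0.61 ± 0.30, SE; adjusted p = 0.808, and 0.252 with the block). Xrcc6, which encodes Ku70 and was chosen after its values were seen, had 141 and 107 against 99.9 and 79.6 (-0.45 ± 0.27, SE; 1.37-fold lower, adjusted p = 0.855, and 0.186 with the block). Neither overlapped between the fractions. Prkdc, the kinase that Ku recruits, was at 0.31, with 50.9 and 54.5 against 58.7 and 74.0.

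Among the damage sensing and checkpoint genes, those of the ATR branch, which answers to stalled forks, held the 2 that passed with the block. Topbp1, the activator of ATR, was at 203 and 210 in CD11b-negative cells and at 350 and 365 in CD11b-positive cells, means of 207 ± 5.50 and 358 ± 10.9 (SD, n = 2 each). Its log2 difference was 0.78 ± 0.19 (SE; 1.72-fold, adjusted p = 0.546, and 0.000334 with the block), with 0.78 and 0.79 within the kits, the closest match between kits of the 7 genes. Clspn, the adaptor through which ATR reaches its effector kinase, had 84.3 and 92.2 against 141 and 160 (0.75 ± 0.23, SE; 1.68-fold, adjusted p = 0.614, and 0.0108 with the block). Atr itself had 94.2 and 64.5 against 96.9 and 119, a difference of 0.04 under One-Cycle and 0.85 under 3' IVT Express labelling. The effector kinase Chek1 was at 0.21, with 0.08 and 0.34 within the kits. In the ATM branch, which answers to breaks, Atm was at 0.11 and Chek2 at 0.26, both with opposite signs in the kits. Trp53bp1, which shields ends from resection and favours end joining, was chosen after its values were seen. It had 415 and 316 against 307 and 258, with no overlap, and a log2 difference of -0.36 ± 0.23 (SE; 1.28-fold lower, adjusted p = 0.877, and 0.104 with the block).

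Both mismatch repair genes missed the threshold. Msh6, a subunit of the mismatch sensor, was at 60.7 and 96.0 in CD11b-negative cells and at 82.9 and 139 in CD11b-positive cells. The fractions overlapped, with the 3' IVT Express array the brighter in each, and within the kits Msh6 was at 0.43 and 0.52 (adjusted p = 0.897, and 0.193 with the block). Pms2, a subunit of the endonuclease that follows the sensor, had 94.7 and 97.2 against 89.9 and 99.6 and a log2 difference of -0.02 ± 0.24 (SE), the nearest to 0 of the 34.

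**Figure D3:**
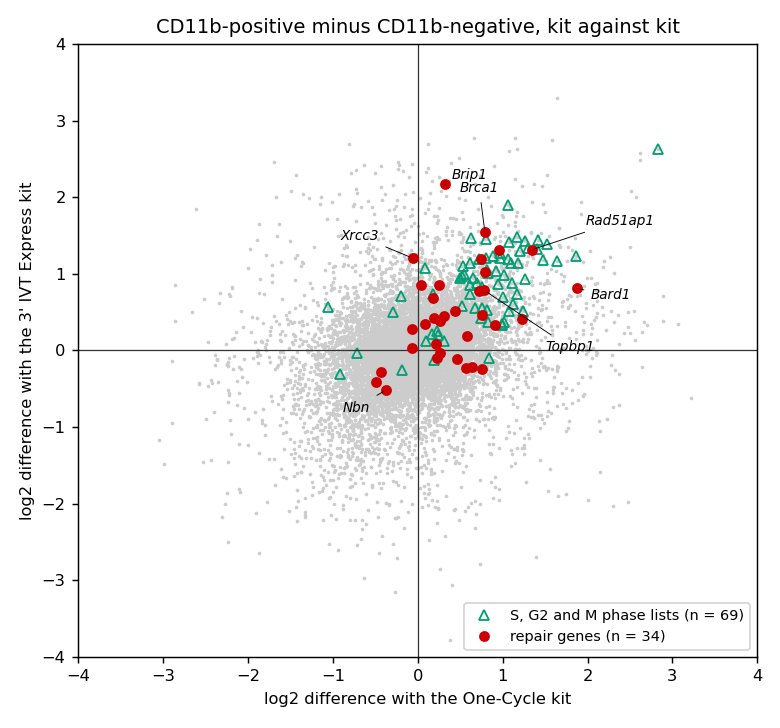
Log2 difference between the fractions under One-Cycle (x axis) and under 3' IVT Express labelling (y axis), grey for the 12645 genes tested, red for the 34 repair genes and green triangles for the S, G2 and M phase lists. Of the repair genes, 22 lie in the upper right, 3 in the lower left and 9 in the other quadrants, and Brip1, Xrcc3 and Bard1 lie far from the diagonal.

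Over the 34 repair genes the differences of the kits had a Pearson's r of 0.40, against 0.27 over all genes; this is a description across genes, which share the same 4 arrays and are not independent. The 9 genes with opposite signs in the kits were Xrcc3, Rad50, Fanca, Fancc, Fancg, Fancm, Atm, Chek2 and Pms2.

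Several repair genes have more than 1 probe set above the filter, and these differed in places. For 17 genes there were 26 probe sets beside the brightest, which was the one used; 22 had its sign and 4 did not. Brca1 was at 1.17 with the probe set used and at 1.16, 1.91 and 0.08 with the others. Rad51ap1 was at 1.33 against 1.18 and 0.03, both from sets whose names mark possible cross-hybridisation. Topbp1 was at 0.78 against -0.26 for its other set, which had signals of 28.0 and 21.5 against 19.2 and 20.9. With the mean of all sets, Topbp1 was at 0.26 (adjusted p = 0.900, and 0.527 with the block), Rad51ap1 at 0.84 (0.634 and 0.0879), Brca1 at 1.08 (0.636 and 0.0563), Clspn at 0.58 (0.771 and 0.181) and Rad54l at 0.84 (0.760 and 0.166). Fancd2 was at 1.03 by that rule, its dimmer sets being at 1.29 and 1.18. The set used for Chek1 also carries the cross-hybridisation mark, and its other set above the filter was at 0.26. Atm was at 0.11 and -0.35, and Trp53bp1 at -0.36, -0.05, -0.23 and 0.10.

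**Figure D4:**
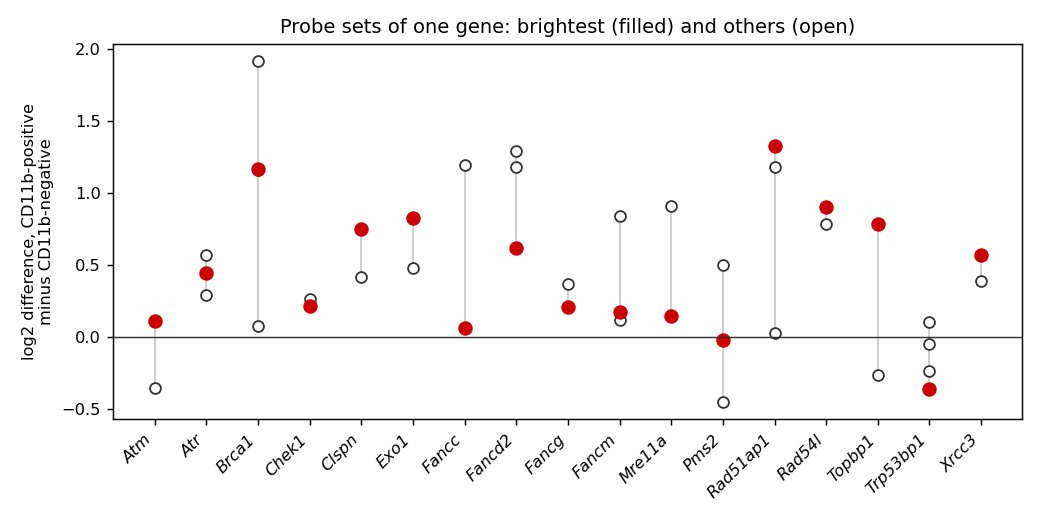
Log2 difference between the fractions for each probe set above the filter of the 17 repair genes with more than 1, filled for the brightest set, which was tested, and open for the others. Sets of Rad54l, Chek1 and Atr lie close together, whereas 1 set each of Brca1, Rad51ap1 and Topbp1 lies near or below 0 and Fancc spans 0.06 to 1.20.

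Lists of other genes of the same and neighbouring pathways, drawn up by function, together held 148 tested genes that are not among the 34, with a median of 0.08; 15 passed as higher (10.1%) and 5 as lower (3.38%) with the block, where the background was 3.73% and 4.14%, and 0 passed without it. Recombination factors held 4 higher and 0 lower of 28 (median 0.19). Rpa1 and Rpa2, subunits of the protein that coats single-stranded DNA, had log2 differences of 0.89 and 0.79 (adjusted p with the block 4.15e-06 and 0.00527), and Rpa1 had 709 and 452 against 1124 and 984. The others were Rpa3, the remaining subunit, at 0.55 (0.0317; chosen after its values were seen), and Eme1 (0.0358). Eme1, an endonuclease subunit, was dim in the CD11b-negative arrays (15.04 and 1.16) and had 34.9 and 22.2 in the CD11b-positive ones. Its CD11b-negative mean lay below the filter, so its place among the 4 rests on the CD11b-positive arrays. The further Fanconi genes held 3 higher and 0 lower of 10: Ube2t, the E2 enzyme that works with Fancl, at 0.99, Usp1, which removes that ubiquitin, at 0.58, and Fancb, with a CD11b-negative signal of 2.30 under the One-Cycle kit. Their adjusted p-values with the block were 0.0137, 0.000804 and 0.0419.

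Checkpoint factors held 3 higher and 1 lower of 25 with the block (median 0.14). These are 12% and 4%, against 3.73% and 4.14% of all genes, so the lower share is near the background. Timeless and Tipin, the fork protection pair that works with Clspn, were at 1.52 and 0.85 (adjusted p with the block 0.000212 and 0.000203), with within-kit values of 1.55 and 1.49 for Timeless and 0.86 and 0.84 for Tipin. Hus1, a part of the clamp loaded at damaged DNA, was at 0.69 (0.0385), and Uimc1, which brings the Brca1 complex to ubiquitin at breaks, at -0.64 (0.00372), both chosen after their values were seen. Cdc25c, a phosphatase that opens mitosis, was at 1.27 and did not pass (0.0501). The further end joining and mismatch repair lists held 0 of 10 and 0 of 5 in either direction. Poll, a polymerase of end joining, was at -0.95, Tdp1 and Tdp2, which free DNA ends, at 0.51 and 0.56, and Pms1, Mcm9 and Mlh3 at 0.59, 0.37 and -0.30, and none of these 6 passed.

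Excision repair and translesion synthesis had medians near that of all genes. With the block, the share called higher was 5.26% in base excision repair, 10.5% in nucleotide excision repair and 7.69% in translesion synthesis. The background was 3.73% of all genes higher and 4.14% lower. Base excision repair had 1 higher and 0 lower of 19 (median 0.10): Lig1, the ligase that also joins Okazaki fragments, at 0.95 (adjusted p = 0.000780 with the block), while Apex1 and Mutyh were at 0.61 and 1.06 without passing. Nucleotide excision repair had 2 higher and 0 lower of 19 (median -0.01), Ercc1 at 0.52 and Cetn2 at 0.46 (0.0459 and 0.0437), with Ercc8 at 0.65 not passing. Translesion synthesis had 1 higher and 0 lower of 13 (median 0.08), Ube2n at 0.55 (0.00816), with Shprh and Hltf at 0.64 and 0.34 not passing. Such small medians moved when 1 array was left out: without CD11b-negative replicate 2 the further recombination list was at 0.07, the further Fanconi list at 0.0012 and base excision repair at -0.02.

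Of 24 tested genes listed here as p53 and its targets, 1 was higher and 4 were lower with the block. These are 4.17% and 16.7%, against 3.73% and 4.14% of all genes, so the higher share is near the background. The median was -0.11, and 11 were lower with both kits (45.8%, against 30.5% of all genes). Cdkn1a, the cell cycle inhibitor p21, was at 71.1 and 112 in CD11b-negative cells and at 49.1 and 68.3 in CD11b-positive cells (log2 difference -0.60, adjusted p = 0.839, and 0.126 with the block). Btg2 was at -0.55, Gadd45b at -0.64 and Perp at -0.86 (adjusted p = 0.610, 0.644 and 0.610, and 0.000429, 0.000398 and 0.00860 with the block). The others, chosen after their values were seen, were Bbc3, a promoter of cell death, at -0.63 (0.0286 with the block) and Sesn2, a stress gene, at 0.88 (0.0404), whose arrays overlapped (32.2 and 125 against 112.6 and 128.3). Perp is also known as a gene of epithelial junctions, and epithelial markers were lower in the same arrays. The part of epithelial cells in the Perp difference was not tested, nor was the part of p53 in the differences of this list.

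**Figure D5:**
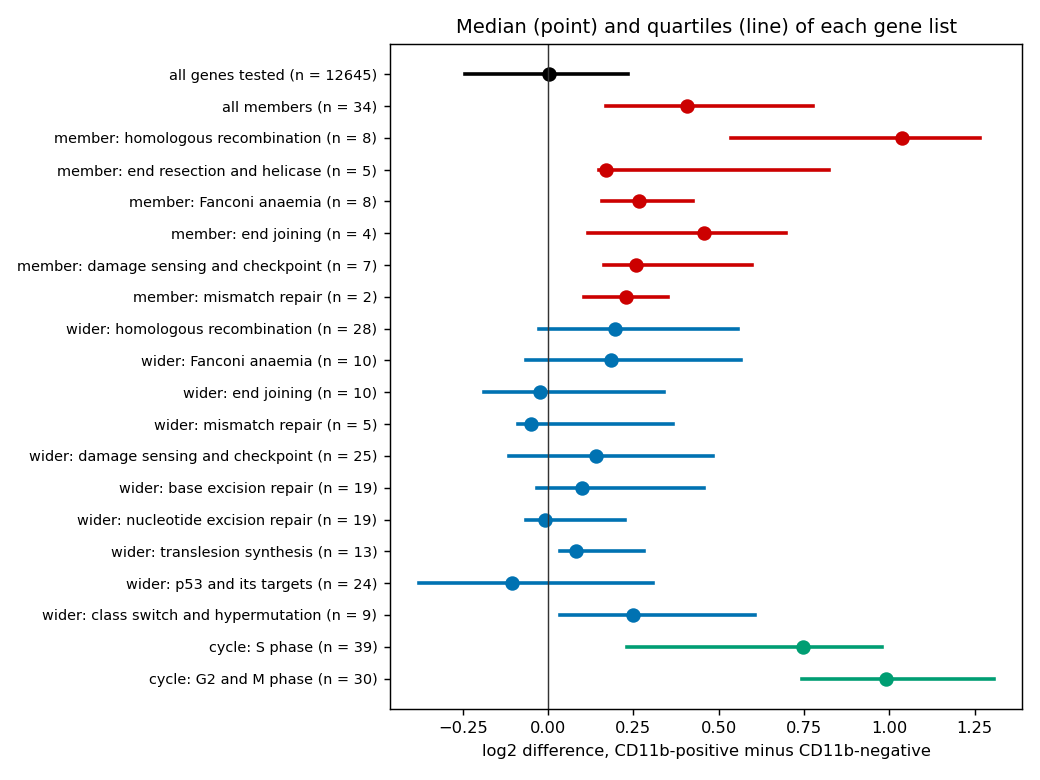
Median log2 difference between the fractions (points) with quartiles (lines) for all genes tested (black), the repair genes and their 6 groups (red), further pathway lists (blue) and cell cycle lists (green). Recombination genes lie at 1.04 (0.74 without Bard1 and Brip1), the S phase and the G2 and M phase lists at 0.75 and 0.99, and the p53 list at -0.11.

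Cell cycle genes were also higher. Of 39 S phase genes, 20 were higher and 0 lower with the block (median 0.75), and of 30 G2 and M phase genes 24 were higher and 0 lower (median 0.99), against 3.73% of all genes higher. The S phase median was 0.72 without Gins2 and Tyms, whose mean in 1 fraction lay below the filter. Mki67, a marker of cycling cells, was at 1042 and 579 in CD11b-negative cells and at 1818 and 1341 in CD11b-positive cells (adjusted p = 0.611, and 2.26e-07 with the block). Gins2 of S phase was below the filter in CD11b-negative cells on average (5.53 and 9.61, against 57.7 and 75.02), so no difference is given. Rrm2 and Mcm3 of S phase were at 1.00 and 1.32, and Cdc20, Cdca8 and Ube2c of mitosis at 1.09, 1.25 and 1.16. The summed signal of the 30 G2 and M phase genes was 5876 and 4286 without CD11b and 11402 and 8387 with it, and that of the 39 S phase genes 8624 and 6478 against 12072 and 10019. The part of cycling cells in the repair gene differences was not tested, and in bulk samples fewer cells of a type and less RNA per cell cannot be told apart.

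Markers of gut epithelium were lower: of 21 markers above the filter, 19 were lower with both kits, and their summed signal was 7300 and 7466 in the CD11b-negative against 3838 and 2859 in the CD11b-positive arrays. Markers of T, NK and innate lymphoid cells summed to 5716 and 2210 against 2903 and 1529, and B cell markers to 4640 and 2107 against 2864 and 2092. In both lists the sums overlapped between the fractions. Within the kits, 8 of 13 T, NK and innate lymphoid markers were lower with both, and 5 (38.5%, against 4.14% of all genes) were lower with the block. Sums overlapped too for macrophage, monocyte and dendritic cell markers (1445 to 1611 and 1251 to 1696). The largest part of these sums on each array was Lyz1, at 1016 and 913 against 721 and 502. Lyz1 was lower with both kits, as 19 of 21 epithelial markers were, and which cells its signal came from was not tested. Because the sums hold so much Lyz1, their overlap does not speak for the other markers. Overlap was also seen for granulocyte and mast cell markers (328 to 442 and 242 to 337), in which 8 of 14 lay above the filter. Stromal and endothelial markers overlapped as well (242 to 322 and 252 to 281). Of 15 macrophage, monocyte and dendritic cell markers above the filter, 4 lay higher on both CD11b-positive arrays (Itgam itself, Itgax, Cd14 and C1qb) and 2 lower (Lyz1 and Mertk). These are 26.7% and 13.3%, against 18.3% and 17.3% of all genes. With the block, 2 of them were higher (Itgam and Itgax) and 1 was lower (Lyz1), or 13.3% and 6.67%, against 3.73% and 4.14% of all genes. Lyz1 had a log2 difference of -0.68 and Lyz2 of 0.51. Itgax had 59.4 and 61.7 against 98.9 and 126, Cd14 had 36.4 and 33.95 against 65.01 and 55.6, and C1qb had 16.1 and 21.0 against 58.9 and 34.1; Csf1r and Adgre1 overlapped. These markers were chosen after their values were seen. Plasma cell markers summed to 70226 and 72681 against 68883 and 69019, with Igha and Jchain the brightest of them. Of 15 such markers, 10 were lower and 3 higher with both kits (66.7% and 20%, against 30.5% and 31.6% of all genes). With the block 2 were lower and 1 was higher (13.3% and 6.67%, against 4.14% and 3.73%). Their log2 differences ran from -0.61 (Sdc1) to 0.41 (Eaf2). For beta-actin the 3' over 5' signal ratio, a measure of RNA length, was 1.90 and 1.84 without CD11b and 1.43 and 1.61 with it, while for Gapdh it was 0.685 and 0.704 against 0.682 and 0.710. The part of these cells and of RNA length in the repair gene differences was not tested.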

How the data were processed

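The deposited values are linear intensities, 1 per probe set and array. Per the submitters' processing notes the tools were Expression Console and MAS5; any scaling target is not given here. Of 45101 probe sets, 64 controls were left out; 34945 name 1 gene, 932 several and 9160 none, by the platform annotation. Signals were quantile-normalized, log2(signal + 3) was taken, and genes whose brightest probe set had a mean log2 value above the 40th percentile were tested, 12645 in all, by limma (version 3.58.1, under R 4.3.3), with a mean-variance trend in eBayes and a Benjamini-Hochberg threshold of 0.05. The fit was also run on simulated data drawn from its own model with independent noise. That run does not show how the fit does on these arrays. With so few arrays, their number limits the precision.

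The labels give each array's labelling kit, and a kit was used once per fraction, so it pairs the arrays; deviations from the fraction means correlated within a kit (r = 0.387 across genes). The paired fit takes the kit as a replicate block.

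The 38 genes, the lists and the motifs were chosen with earlier results of these data known. Values of all 4 arrays are given, in each group, for genes past the threshold with the block or, where fewer than 2 passed, for the 2 with the smallest p without it; in further lists up to 3 genes by smallest p are named. The alternatives were other scalings, pseudocounts, filters and probe set rules, the block, no trend, leaving out each array, and, chosen after seeing the data, the block combined with these. Promoters are RefSeq's.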

Additional observations from a re-analysis of the deposited data

How the results depend on the processing

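Without the block 0 repair genes passed under any scaling, pseudocount, filter, probe set rule or array left out; by size alone (nearest arrays at least 2-fold apart) 1 was higher, and 43 and 49 of all genes higher and lower. With the replicate block (the paired fit), 7 repair genes were higher, and 472 and 524 of all genes higher and lower. The block with another choice gave 18 on the signals as deposited (all genes 3655 and 154), 10 after median centring (2205 and 232), 5 when trimmed means were set equal (406 and 420), 6 by cyclic loess (358 and 466), and 2 when all sets of a gene were averaged (351 and 395). The first 2 scalings shift the median of all genes by 0.42 and 0.23 log2. Brca1, Clspn, Lig4, Rad51ap1 and Topbp1 passed under each of the 5 scalings. Leaving out 1 array, without the block, gave 0 to 2 higher and 0 to 23 lower of all genes, the most lower (23, with 1 higher) without CD11b-positive replicate 1; a lone array is then assumed to vary like the other fraction's.

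The repair genes' median of 0.41 was 0.28, relative to all genes, on the deposited signals and after median centring, 0.29 with a trimmed mean, 0.32 with a pseudocount of 12, 0.31 with the filter at the 70th percentile and 0.44 per probe set; leaving out 1 array it ran from 0.32 to 0.46, and it was 0.38 without Bard1 and Brip1 (chosen after seeing the data). Pms2 changed sign with the mean of its probe sets (0.0079, with or without the block) and without CD11b-positive replicate 1 (0.0524); leaving out 1 array it ran from -0.0907 to 0.0524. The causes were not tested. Dim genes such as Bard1, Brip1 and Eme1, near the filter, are limited by signal over background.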

Other observations

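Factors of class switching and hypermutation overlap the repair genes and were listed apart. Of 9 tested, 6 were higher and 1 lower under either kit (66.7% and 11.1%, against 31.6% and 30.5% of all genes), with a median of 0.25, and 0 passed with the block in either direction. Exo1, Apex1 and Apex2, the last 2 being endonucleases that cut at lost bases, were at 0.82, 0.61 and 0.64. Apex1 had 91.1 and 122 in CD11b-negative cells against 199.5 and 131 in CD11b-positive cells, with 1.11 under One-Cycle and 0.10 under 3' IVT Express labelling.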
